A study of Mus musculus with 4 samples.

Results

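The Obox genes encode a family of homeobox transcription factors found in rodents and active in oocytes and early embryos, and 8 of them were followed in mouse 2-cell embryos cultured with or without dimethyl sulfoxide (DMSO). The members were taken by name, as the rows of the deposited table whose Ensembl identifiers map to Obox1, Obox2, Obox5 and Obox7, here called the maternal members, and to Obox3, Obox4-ps1, Obox6 and Obox8, here called the zygotic members. They are 8 of 30049 genes in the table, and the rule itself goes by name, although the family was chosen with earlier results of these data known. All embryos were wild type and came from matings of BDF1 mice, which are first-generation crosses of C57BL/6 and DBA/2 mice, the mice used being 8 to 12 weeks old. Zygotes were taken about 18 h after the hCG injection that triggers ovulation and spent 24 h in KSOM, a culture medium for early embryos, either without additive (control, 2 libraries) or with 2% DMSO (DMSO, 2 libraries). The labels give 50 embryos for each group and do not say whether the libraries of a group were separate cultures, so the p-values measure the spread between these libraries, which may be technical. Each library is RNA of pooled embryos, so that less RNA in every embryo and fewer embryos that carry the RNA cannot be told apart.

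A homeodomain is a DNA-binding fold, and the proteins that carry it bind short AT-rich sites and switch genes on or off. RNA of the maternal Obox genes is made in the growing oocyte, stored, and cleared after fertilization, whereas the zygotic genes are transcribed from the new embryonic genome. The family is known for acting with much redundancy in zygotic genome activation (ZGA), the step at the 2-cell stage at which the embryo starts to transcribe its own genes while it degrades the RNA it inherited. Obox4 is also known as an activator of 2-cell genes, and Obox6 as a factor that promotes reprogramming to pluripotency in cultured cells.

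The members lie together on chromosome 7 of GRCm38, within 1508 kb from 14331436 to 15839678 in the GENCODE M21 annotation, in an array that also holds 46 Obox pseudogenes. Obox8 (ENSMUSG00000099216, 14331436 to 14333557, minus strand) forms the left end of this array and Obox6 (ENSMUSG00000041583, 15833241 to 15839678, minus strand) the right end. Obox7 (ENSMUSG00000055942, 14659496 to 14665996), Obox2 (ENSMUSG00000074369, 15388721 to 15398545), Obox1 (ENSMUSG00000054310, 15388948 to 15556866) and Obox5 (ENSMUSG00000074366, 15750131 to 15759800) lie between them, all on the plus strand. Obox3 (ENSMUSG00000066772, 15479825 to 15639902, minus strand) also lies there, and the annotated span of Obox1 overlaps those of Obox2 and Obox3. Obox4-ps1 (ENSMUSG00000098290, 14517971 to 14518670, minus strand) is annotated as an unprocessed pseudogene, and the other 7 members as protein coding.

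Start regions are shown for how alike the members are in sequence, and their part in the response to DMSO was not tested. RefSeq start windows on GRCm38.p6, each of 300 bases, were matched for 5 members, Obox1, Obox2, Obox3, Obox5 and Obox7, and thus for neither Obox6 nor Obox8. The Obox1 window, 15547007 to 15547306, lies inside the GENCODE span of Obox1 and not at its left end. That span begins at 15388948, near the start of Obox2. The longest run held by all 5 windows is 25 bases long and occurs in the windows of 0 other genes out of 32851 windows. In the lines below, written 5′ to 3′ on the gene's strand, capitals mark this shared run and, nearer the 3′ end, the letters TATATAA of a TATA-type element.
Obox1 (chr7:15547069-15547263, plus strand): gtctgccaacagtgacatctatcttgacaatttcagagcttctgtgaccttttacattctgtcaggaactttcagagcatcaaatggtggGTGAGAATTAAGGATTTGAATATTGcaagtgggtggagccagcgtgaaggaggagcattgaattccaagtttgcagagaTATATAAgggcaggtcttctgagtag
Obox5 (chr7:15750170-15750364, plus strand): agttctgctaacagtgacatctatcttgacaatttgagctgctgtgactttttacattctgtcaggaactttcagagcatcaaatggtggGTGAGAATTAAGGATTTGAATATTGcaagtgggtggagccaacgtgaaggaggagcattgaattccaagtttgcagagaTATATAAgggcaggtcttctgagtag
Obox7 (chr7:14659534-14659728, plus strand): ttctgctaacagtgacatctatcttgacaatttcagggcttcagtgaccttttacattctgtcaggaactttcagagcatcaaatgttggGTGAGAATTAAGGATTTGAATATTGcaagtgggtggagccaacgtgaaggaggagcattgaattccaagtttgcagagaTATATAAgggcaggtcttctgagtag
Obox3 (chr7:15639782-15639976, minus strand): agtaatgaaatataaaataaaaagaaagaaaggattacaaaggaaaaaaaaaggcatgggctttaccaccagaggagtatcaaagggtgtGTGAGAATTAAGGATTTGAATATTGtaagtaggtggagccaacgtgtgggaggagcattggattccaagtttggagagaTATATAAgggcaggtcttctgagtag

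Over the 135 bases from 90 before the shared run to 20 after it, Obox2 was identical to Obox1, and the 4 maternal members were 93.4% to 100% identical to one another. Obox3 was 58.7% to 62.4% identical to them over the same stretch, its upstream part being of another sequence. The letters TATATAA, searched on both strands, were in the windows of Obox1, Obox3, Obox5 and Obox7, against 3.24% of all windows, and the Obox2 window ends before the place where the others hold them. The letters TAATCC, the core bound by homeodomains of the Otx and Crx type, were found on either strand in the window of Obox3 alone among the 5, against 7.06% of all windows. The letters TAATTG, a core bound by the oocyte homeobox protein Nobox, were in none of the 5 windows, against 8.0% of all. A match of letters is a description of these windows and not of binding.

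In control embryos the zygotic members Obox6 and Obox8 were the most abundant of the family, and in DMSO-treated embryos the maternal member Obox5 was. Obox1 and Obox5 rose with DMSO, Obox6 and Obox8 fell, and Obox3 did not pass the test, with nearly the same level in both groups. Obox2 and Obox7 had low values that were higher on average with DMSO and did not pass the test either. Obox4-ps1 was listed at 0 in all 4 libraries. Levels are given in TPM, a share of all transcripts that is scaled for transcript length and can be compared between genes, and which keeps no record of read depth. The limma test was run on log2(TPM + 1) over the 12038 genes whose mean was 1 TPM or more. By this test 20.5% of all genes were called at an adjusted p-value under 0.05, 6.42% higher and 14.1% lower, and of the 7 members that passed the filter 2 were called higher and 2 lower. Control and DMSO libraries did not overlap for 5 of the 7 members, against 69.8% of all genes tested. Of all calls 31.3% were higher, against 42.9% with median-ratio scaling and 49.0% with quantile normalization. The 7 members reached a mean of 1 TPM in each group, so none passed the filter through one group alone. Their median log2 fold change was 1.62, against -0.09 over all genes tested, but it is the value of Obox7 in a family whose members went both ways, and without control replicate 2 it was 0.22.

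**Figure D1:**
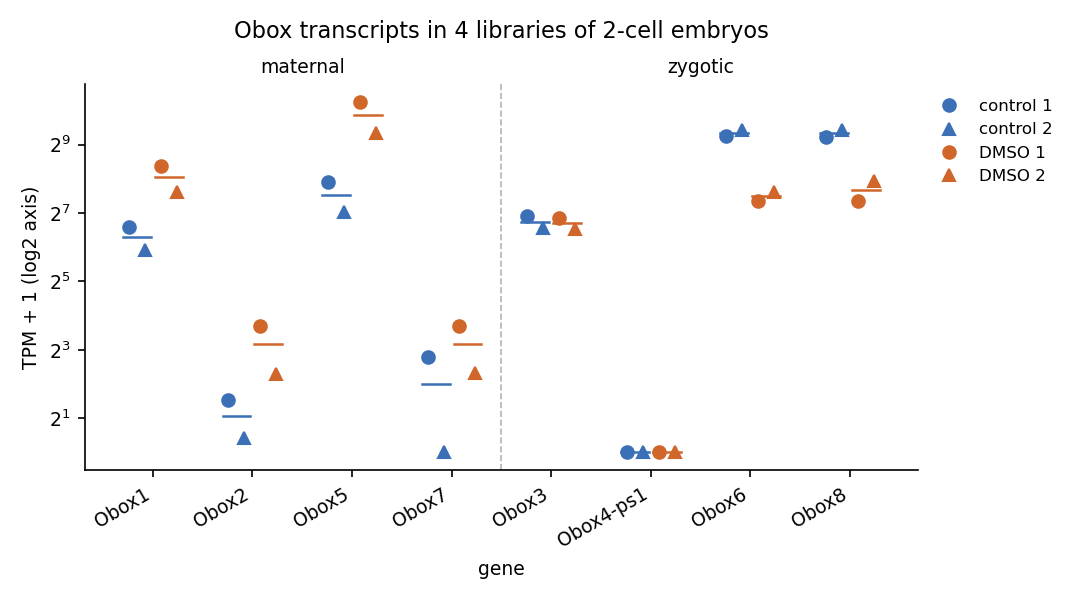
TPM + 1 on a log2 axis for each of the 8 Obox members (x axis) in the 2 control libraries (blue) and the 2 DMSO libraries (orange), with circles for replicate 1, triangles for replicate 2 and lines at group means. Obox5 and Obox1 lie higher in both DMSO libraries, Obox6 and Obox8 lower, the Obox3 libraries overlap, and Obox4-ps1 is at 0 TPM throughout.

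Among the maternal members, Obox5 had the highest level. Its level was 240.3 TPM in control replicate 1, 128.7 TPM in control replicate 2, 1221 TPM in DMSO replicate 1 and 646.0 TPM in DMSO replicate 2; values below follow this order. Both DMSO libraries lay above both control libraries, and replicate 1 was the higher one in each group. The mean rose 5.06-fold, from 185 ± 78.9 TPM to 934 ± 407 TPM (SD, n = 2), or by 2.33 on the log2 scale (standard error 0.42, limma adjusted p = 0.0223). Only 74 of the 12038 genes tested had a higher log2 fold change. By level it moved from rank 509 and 996 among the genes of the control libraries to rank 72 and 141 in the DMSO libraries.

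Obox1 followed the same order of libraries at a lower level. Its levels were 95.6 and 59.3 TPM in the control libraries and 329.6 and 194.1 TPM in the DMSO libraries. The groups did not overlap, which was so for 31.1% of all genes tested with DMSO above control. The mean rose 3.38-fold, or by 1.73 on the log2 scale (standard error 0.37, limma adjusted p = 0.0289). The level of Obox5 was 2.51 and 2.17 times that of Obox1 in the control libraries and 3.71 and 3.33 times in the DMSO libraries.

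Obox2 and Obox7 were present at a few TPM only. Obox2 was at 1.87 and 0.351 TPM without DMSO and at 11.9 and 3.92 TPM with it, without overlap between the groups. The log2 fold change, 2.02 with a standard error of 0.58 and a 95% interval of 0.62 to 3.41, did not pass the test (limma adjusted p = 0.0532). Obox7 was at 5.96 and 0 TPM without DMSO and at 12.1 and 4.05 TPM with it, and its groups overlapped. Its difference on the log2 scale was 1.62 with a standard error of 0.91 (95% interval -0.57 to 3.81, limma adjusted p = 0.222). Without any one library the difference lay between 1.32 and 2.72 for Obox2, which passed without DMSO replicate 2 (limma adjusted p = 0.0440), and between 0.22 and 3.02 for Obox7. The interval of Obox7 spans both no change and a change as large as that of Obox5. The log2(TPM + 1) scale understates changes of low values, and with a pseudocount of 0.1 in place of 1 the log2 fold change was 2.88 for Obox2 (limma adjusted p = 0.0670) and 3.19 for Obox7 (limma adjusted p = 0.230).

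The assignment of reads among the maternal members bears on these values. The authors' program, kallisto, matches short words of sequence and divides reads that fit several transcripts by an estimate. Of the 31-base words in the M21 transcripts of Obox2, 79.9% also occur in other members, and 73.1% of all its words occur in Obox1. For Obox1 the share in other members is 70.0%, for Obox7 43.5% and for Obox5 36.2%, whereas 28.8%, 55.1% and 61.3% of the words of these 3 genes occur in no other gene. The split between Obox1 and Obox2 is therefore uncertain, and their sum depends little on it. This sum was 97.5 and 59.6 TPM in the control libraries and 341.5 and 198.0 TPM in the DMSO libraries, and fitted as 1 row it was 1.76 higher on the log2 scale (limma adjusted p = 0.0289). The low values of Obox2 and Obox7 could change with another split of the same reads, which was not tested.

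**Figure D2:**
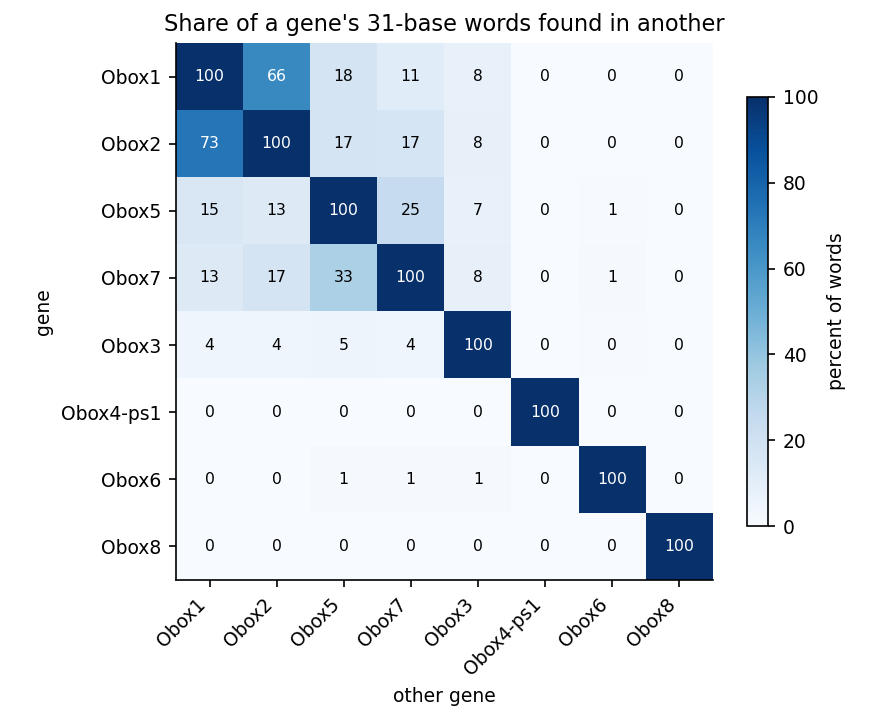
Percent of the 31-base words in the transcripts of each gene (rows) that also occur in the transcripts of each other gene (columns), for the 8 Obox members. Obox1 and Obox2 share most words, Obox5 and Obox7 share some, and Obox8, Obox6 and Obox4-ps1 share at most 1.07% of their words with other members.

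The sum over the 4 maternal members depends little on how reads were split inside this group. Of their words, 7.77% (Obox1), 9.12% (Obox2), 12.5% (Obox5) and 16.2% (Obox7) also occur in Obox pseudogenes, and some occur in Obox3. The part of a split of reads with those rows was not tested. The maternal sum was 343.8 and 188.3 TPM in the control libraries and 1575 and 848.0 TPM in the DMSO libraries, 4.55-fold higher on average with DMSO. Both DMSO libraries lay above both control libraries. As a share of all TPM in the table, the maternal members made up 0.0448% and 0.0241% without DMSO and 0.204% and 0.106% with it.

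Among the zygotic members, Obox6 and Obox8 had nearly the same levels and changes. Obox6 was at 602.3 and 690.0 TPM without DMSO and at 162.2 and 193.7 TPM with it. Obox8, at the other end of the array, was at 594.8 and 688.4 TPM without DMSO and at 161.9 and 243.7 TPM with it. For both genes all control libraries lay above all DMSO libraries, as was so for 38.7% of all genes tested, and replicate 2 was the higher one in each group. The mean of Obox6 was 3.63-fold lower with DMSO, 178 ± 22.3 TPM against 646 ± 62.1 TPM (SD, n = 2). On the log2 scale this is -1.86 (standard error 0.25, limma adjusted p = 0.0181). The mean of Obox8 was 3.16-fold lower, 203 ± 57.9 TPM against 642 ± 66.2 TPM (SD, n = 2), or -1.68 on the log2 scale (standard error 0.29, limma adjusted p = 0.0216).

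The ratio of Obox6 to Obox8 was 1.01 in control replicate 1 and lay within 1% of equality in control replicate 2 and DMSO replicate 1, whereas in DMSO replicate 2 it was 0.795. The cause of these near-equal levels was not tested. Of the 31-base words of Obox8, 100% occur in no other gene of the annotation. Of the words of Obox6, 85.4% are its own, 14.6% occur in Obox pseudogenes and 1.07% in other members. By level, Obox6 ranked 178 and 156 among all genes without DMSO and 670 and 525 with it.

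Obox3 was at 118.5 and 93.0 TPM without DMSO and at 114.8 and 91.5 TPM with it. The groups overlapped, and replicate 1 was the higher one in each, by more than the groups differed. DMSO minus control was -0.03 on the log2 scale (standard error 0.27, limma adjusted p = 0.933). The 95% interval ran from -0.69 to 0.62, so that changes between these bounds remain possible. Its sign was positive with median-ratio scaling (0.07) and with quantile normalization (0.25). Of the words of Obox3, 24.8% occur in Obox pseudogenes, 8.65% in other members and 68.8% in no other gene.

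Of 39 further rows named as Obox pseudogenes, 14 reached a mean of 1 TPM and were tested. Limma called 0 of these 14, against 20.5% of all genes tested. An unadjusted p-value under 0.05 was found for 2 of them, Obox3-ps7 (limma unadjusted p = 0.0152) and Obox4-ps29 (limma unadjusted p = 0.0325). Obox4-ps29 passed the filter through the DMSO libraries alone, so that its p-value carries no weight. Most of their signal was in 8 rows named after Obox3, which summed to 435.1 and 324.9 TPM without DMSO and to 340.1 and 311.4 TPM with it. These sums overlapped between the groups, as those of Obox3 did. The row highest among them, Obox3-ps5, was at 199.4 and 150.0 TPM without DMSO and at 158.8 and 145.8 TPM with it, a higher level than that of Obox3 itself in every library. Obox3 with its 8 pseudogene rows summed to 553.6, 417.9, 454.9 and 402.9 TPM, in the same order of libraries. The 30 other rows named after Obox4 summed to 46.9 and 31.3 TPM without DMSO and to 62.5 and 36.6 TPM with it, with Obox4-ps28 the highest at 14.6 to 27.8 TPM. The other 10 rows tested, Obox3-ps1, Obox3-ps2, Obox3-ps3, Obox3-ps4, Obox3-ps6, Obox4-ps12, Obox4-ps27, Obox4-ps30, Obox4-ps31 and Obox4-ps38, had log2 fold changes from -0.75 to 0.70. Obox4-ps1 itself was listed at 0 in every library, and 95.5% of its words occur in no other gene, so that the value at this locus says nothing about the other Obox4 copies. The remaining row, Obox6-ps1, was also listed at 0 in every library.

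**Figure D3:**
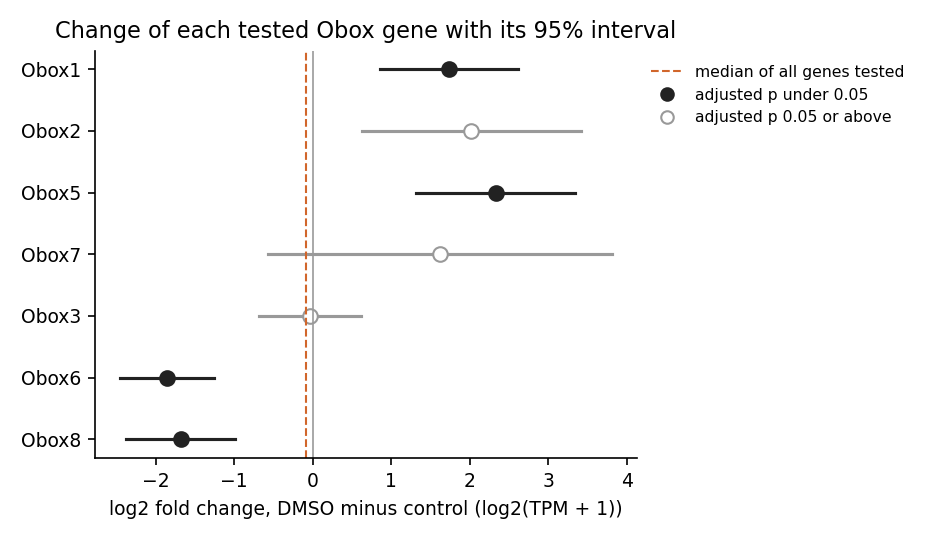
Log2 fold change (DMSO minus control, on log2(TPM + 1)) of the 7 tested Obox members, with 95% intervals from limma; filled points passed an adjusted p-value of 0.05, open points did not, and the dashed line is the median of all genes tested. Obox5 and Obox1 lie above 0, Obox6 and Obox8 below 0, and the interval of Obox3 spans it.

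The calls were lost when 1 of 3 libraries was left out. Without control replicate 1, control replicate 2 or DMSO replicate 1, limma called 0 genes of 12038, with 3745, 2602 and 3078 at an unadjusted p-value under 0.05, and the 4 called members then had adjusted p-values between 0.0827 and 0.192. With no filter on low values 0 of 22257 genes were called, 5368 having an unadjusted p-value under 0.05, and the 4 members had limma adjusted p-values between 0.102 and 0.117. Without any one library Obox5 lay between 1.87 and 2.79, Obox1 between 1.35 and 2.12, Obox6 between -1.98 and -1.73 and Obox8 between -1.98 and -1.39 on the log2 scale. For a single gene, an exact permutation test of 2 libraries against 2 cannot give a two-sided p below 0.33.

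The summed level of the family hardly differed between the groups, while its make-up did. All 8 members together were at 1659 and 1660 TPM without DMSO and at 2014 and 1377 TPM with it, so that the DMSO libraries lay on either side of the control libraries. With the pseudogene rows the sums were 2141 and 2016 TPM without DMSO and 2416 and 1725 TPM with it. Maternal members made up 20.7% and 11.3% of the 8-member sum without DMSO and 78.2% and 61.6% with it. Obox6 and Obox8 together made up 72.1% and 83.0% without DMSO and 16.1% and 31.8% with it. The share of Obox3 was 7.14%, 5.61%, 5.70% and 6.65% in the same order of libraries. The sum of Obox6 and Obox8 was 3.48 and 7.32 times that of the maternal members in the control libraries, and the maternal sum was 4.86 and 1.94 times that of Obox6 and Obox8 in the DMSO libraries.

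**Figure D4:**
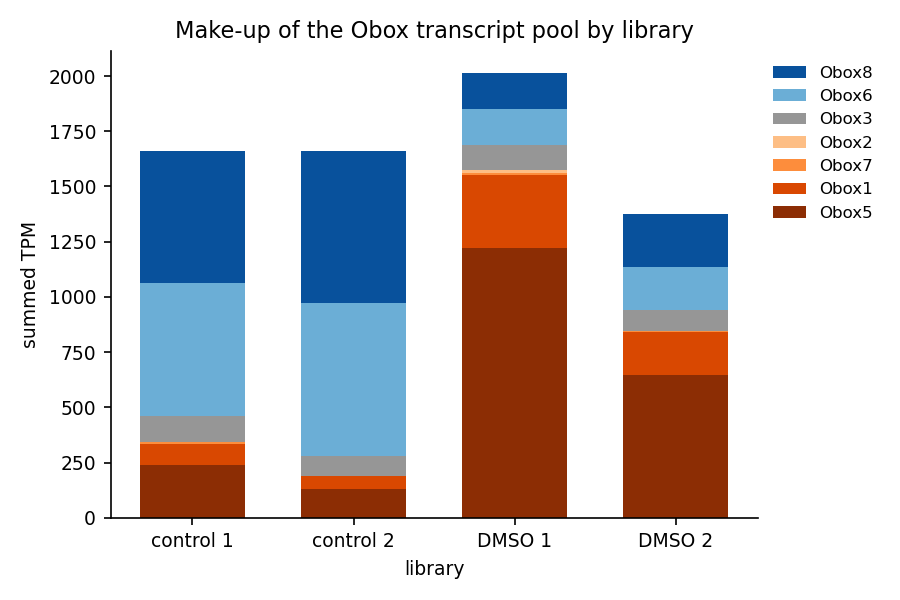
Summed TPM (y axis, from 0) of the Obox members in each of the 4 libraries (x axis), stacked by gene. Obox6 and Obox8 (blue) fill most of the control bars and Obox5 and Obox1 (dark orange) most of the DMSO bars, while the total heights run from 1377 to 2014 TPM.

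In order of level, the control libraries had Obox6 (646 TPM on average), Obox8 (642 TPM), Obox5 (185 TPM), Obox3 (106 TPM), Obox1 (77.4 TPM), Obox7 (2.98 TPM) and Obox2 (1.11 TPM). Obox6 and Obox8 overlapped between libraries in this order, as did Obox3 and Obox1, and Obox7 and Obox2, while the other neighbours did not. In the DMSO libraries the order was Obox5 (934 TPM), Obox1 (262 TPM), Obox8 (203 TPM), Obox6 (178 TPM), Obox3 (103 TPM), Obox7 (8.06 TPM) and Obox2 (7.93 TPM). Here Obox1 and Obox8 overlapped, Obox8 and Obox6 as well, and so did Obox7 and Obox2. Obox5 was thus above every other member in both DMSO libraries and below both Obox6 and Obox8 in both control libraries.

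By position, the pair that fell lies at the ends of the array and the maternal members lie inside it. From left to right, the log2 fold changes were -1.68 for Obox8, 1.62 for Obox7, 2.02 for Obox2, 1.73 for Obox1, -0.03 for Obox3, 2.33 for Obox5 and -1.86 for Obox6, with Obox2 and Obox7 not passing the test. Of 7 other genes tested within the array 1 was called higher and 1 lower, against 6.42% higher and 14.1% lower of all genes tested. Gtpbp4-ps3, a pseudogene, was listed at 0 and 2.90 TPM without DMSO and at 9.70 and 10.7 TPM with it (limma adjusted p = 0.0388). Nlrp5-ps, a pseudogene to the right of Obox4-ps1, was at 24.2 and 20.4 TPM without DMSO and at 9.16 and 8.58 TPM with it (limma adjusted p = 0.0335). The other 5 tested there, Vmn1r90, Ranbp2-ps1, Gtpbp4-ps2, Mrip-ps and Gtpbp4-ps5, had log2 fold changes from -1.29 to -0.10 and did not pass the test. Of these Vmn1r90, at the lower end, and Ranbp2-ps1 passed the filter through the control libraries alone and had to be lower with DMSO. To the right of Obox6 lie Crx, a photoreceptor homeobox gene, and Crxos, a homeobox gene of early embryos. Crxos was at 1062 and 1512 TPM without DMSO and at 530.3 and 810.7 TPM with it. The difference of -0.95 on the log2 scale (standard error 0.32) did not pass the test (limma adjusted p = 0.0764).

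**Figure D5:**
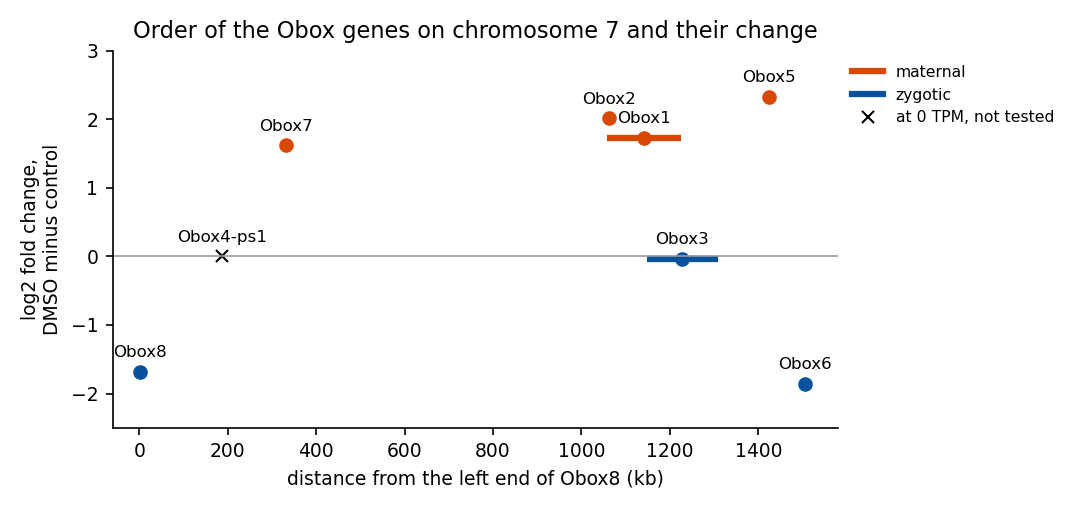
Log2 fold change (y axis, DMSO minus control on log2(TPM + 1)) against the distance in kb from the left end of Obox8 on chromosome 7, with bars for the annotated gene spans, points at their centres, orange for maternal and blue for zygotic members, and a cross for Obox4-ps1, at 0 TPM and not tested. Obox8 and Obox6 lie low at the ends of the array, and the maternal members lie high between them.

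Other homeobox genes were listed by name, and 36 of 79 in the table were tested. Of these, limma called 3 higher and 1 lower, or 11.1% against 20.5% of all genes, with a median log2 fold change of 0.29. Means of 1 TPM or more in each group were found for 30 of the 36, and of these 2 were called higher and 1 lower, with their median at 0.22. The genes called higher were Sebox, Nobox and Lhx8, each known as an oocyte factor. Sebox rose from 81.8 and 50.0 TPM to 154.4 and 143.2 TPM (limma adjusted p = 0.0411), Nobox from 0.322 and 1.28 TPM to 3.92 and 5.54 TPM (limma adjusted p = 0.0351), and Lhx8 from 2.87 and 3.26 TPM to 11.4 and 7.07 TPM (limma adjusted p = 0.0461). Nobox was under 1 TPM on average without DMSO and passed the filter through the DMSO libraries alone, so that it had to differ and its call carries no weight. Pou6f1, a POU homeobox gene, fell from 5.71 and 5.03 TPM to 1.01 and 1.19 TPM (limma adjusted p = 0.0271). Cux2, the most abundant after Crxos, was at 445.5 and 347.7 TPM without DMSO and at 365.0 and 294.0 TPM with it, with overlap between the groups.

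Among 18 tested transcription factors and regulators of oocytes, limma called 6 higher and 1 lower, or 38.9% against 20.5% of all genes, with a median log2 fold change of 0.39. Of the 17 with a mean of 1 TPM or more in each group, which leaves out Nobox, 5 were called higher and 1 lower, and their median was 0.29. Besides the 3 homeobox genes, Tbpl2, the oocyte's variant of the TATA-binding protein, rose from 3.44 and 1.57 TPM to 23.4 and 7.95 TPM (limma adjusted p = 0.0408). Foxo3 and Bnc1 were the other 2 called higher, both known from oocyte development. Sall4, a zinc finger factor of oocytes and pluripotent cells, fell from 73.3 and 84.6 TPM to 37.0 and 39.9 TPM (limma adjusted p = 0.0397). Tcl1, highest of the list by its mean over all 4 libraries but not by its control mean, was at 82.1 and 30.7 TPM without DMSO and at 231.8 and 89.9 TPM with it, and did not pass the test (limma adjusted p = 0.108). Hsf1, a heat shock factor that acts in oocytes, was at 79.3 and 68.6 TPM without DMSO and at 70.7 and 94.9 TPM with it, with overlap. Without DMSO replicate 2, 1 gene of this list was called in place of 7, and 1 of the other homeobox genes in place of 4.

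Of 33 tested regulators of ZGA, limma called 2 higher and 6 lower, or 24.2%, near the 20.5% of all genes, with a median log2 fold change of -0.20, or -0.22 over the 32 with a mean of 1 TPM or more in each group, which hold the same calls. Nfya, a subunit of the NF-Y factor that opens chromatin in 2-cell embryos, rose from 43.1 and 30.8 TPM to 133.5 and 103.9 TPM (limma adjusted p = 0.0221). The other subunits listed went the other way without overlap, as was so for 38.7% of all genes tested, and did not pass the test. Nfyb was at 119.9 and 120.9 TPM without DMSO and at 72.4 and 81.1 TPM with it. Nfyc was at 89.7 and 71.3 TPM without DMSO and at 60.2 and 64.7 TPM with it. Dppa2 and Dppa4, partner proteins that act upstream of the 2-cell program, fell. Dppa2 went from 351.5 and 330.1 TPM to 86.8 and 99.8 TPM (log2 fold change -1.86, limma adjusted p = 0.0181), and Dppa4 from 538.3 and 524.9 TPM to 165.6 and 188.3 TPM (log2 fold change -1.58, limma adjusted p = 0.0185). Tfap2c, a factor of preimplantation embryos, fell from 76.2 and 79.5 TPM to 21.4 and 32.1 TPM (limma adjusted p = 0.0247), and Klf4, Smarca4 and Smarca5 were also called lower. Trim28, a corepressor of retroelements, was at 525.4 and 566.4 TPM without DMSO and at 303.8 and 380.5 TPM with it and did not pass the test.

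Of 38 tested genes of the 2-cell stage, limma called 16 higher and 4 lower, or 52.6% against 20.5% of all genes, with a median log2 fold change of 1.02. Of the 36 with a mean of 1 TPM or more in each group, 15 were called higher and 4 lower, and the median was 0.88. The list was drawn up with earlier results of these data known, and several of its genes are near-identical copies among which reads are split, so that members are not independent. Zfp352, a zinc finger gene of the 2-cell stage, rose from 142.5 and 89.0 TPM to 550.6 and 373.2 TPM (log2 fold change 2.00, limma adjusted p = 0.0209). It is also the gene called higher besides Nfya among the regulators of ZGA. The Zscan4 genes stand in both lists too, so that these lists are not separate. Tcstv1 rose from 160.4 and 103.5 TPM to 566.7 and 379.7 TPM (limma adjusted p = 0.0222), and Gm5662 from 225.3 and 149.9 TPM to 1275 and 782.9 TPM (limma adjusted p = 0.0181). Zfp353-ps, a pseudogene, rose from 18.6 and 7.78 TPM to 87.9 and 35.7 TPM (limma adjusted p = 0.0408). Gm5039 reached 28.9 and 4.68 TPM with DMSO and had 0 listed without it, and it passed the filter through the DMSO libraries alone, so that its call carries no weight. In Zfp352, Tcstv1 and Gm5662, as in Obox1 and Obox5, replicate 1 was the higher one of each group. The 4 genes called lower were Eif1ad, a translation factor homologue, Pramel6 and Pramel7, which belong to the Prame family, and Tdpoz2. Pramel6 fell from 91.8 and 83.2 TPM to 14.6 and 15.7 TPM (limma adjusted p = 0.0181) and Pramel7 from 304.6 and 318.5 TPM to 83.3 and 101.2 TPM (limma adjusted p = 0.0181). Sp110, highest of the list by its mean over all 4 libraries and below Gm5662 in both DMSO libraries, was at 697.9 and 698.9 TPM without DMSO and at 746.7 and 776.2 TPM with it (limma adjusted p = 0.707). Tmem92, a membrane protein gene, was at 488.4 and 334.8 TPM without DMSO and at 715.2 and 604.6 TPM with it, and did not pass the test (limma adjusted p = 0.117).

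Markers of the oocyte and early embryo were set beside the maternal members. Among the 10 genes tested out of 12, limma called 2 higher and 0 lower, against the 20.5% of all genes, and their median log2 fold change was 0.95. Both genes called, Bmp15 and Oosp1, encode secreted oocyte proteins. Bmp15 was at 102.2 and 56.0 TPM without DMSO and at 543.8 and 285.4 TPM with it, the order of libraries that Obox5 had. Dppa3, a maternal factor and the most abundant of the list, was at 11639 and 15346 TPM without DMSO and at 10828 and 15216 TPM with it, with overlap. Of the 10 tested, 7 had both DMSO libraries above both control libraries, against 31.1% of all genes, and 2 had both below, against 38.7%. Besides the 2 called they were Gdf9 (70.4 and 41.4 TPM without DMSO, 123.4 and 89.2 TPM with it), Kpna7 (14.8 and 4.65 TPM, then 74.6 and 22.4 TPM), Zp1, Zp2 and Zar1, none of which passed the test. The 2 below were Mos, a kinase of oocyte maturation, at 5.14 and 5.51 TPM without DMSO and at 3.83 and 2.94 TPM with it, and Zp3, which encodes a coat protein of the oocyte, at 1.56 and 2.35 TPM without DMSO and at 1.44 and 0.956 TPM with it, and neither passed the test. Oog1 was listed at 0 in all 4 libraries.

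Other cell types that a collection of embryos from the oviduct could carry along were checked by lists of markers. The counts called in each list stand beside 20.5% called over all genes tested, 6.42% higher and 14.1% lower. The 14 markers of cumulus and granulosa cells summed to 3.82 and 2.67 TPM without DMSO and to 5.20 and 3.84 TPM with it. Cyp11a1 was the most abundant of them and the only one tested, and Amh, Inhba and Lhcgr were at 0 in all libraries. The 8 sperm markers summed to 3.27 and 3.38 TPM without DMSO and to 13.8 and 8.76 TPM with it, Tnp2 and Smcp being at 0. The 2 sperm markers tested, Prm2 and Tnp1, were both called higher, but Tnp1 passed the filter through the DMSO libraries alone and had to differ. Prm2 rose from 2.56 and 2.86 TPM to 11.0 and 6.79 TPM (limma adjusted p = 0.0408). The 7 oviduct markers summed to 125.5 and 117.1 TPM without DMSO and to 71.0 and 96.9 TPM with it. Epcam, which embryos express as well, held most of that sum and was the 1 gene of 5 tested that was called, lower with DMSO. The other 4 tested did not pass the test. Tppp3 passed the filter through the DMSO libraries alone and had to be higher there, and the others included Ovgp1, the oviduct glycoprotein, at 17.9 and 19.5 TPM without DMSO and at 26.2 and 33.2 TPM with it, and Krt7, at 1.41 and 1.51 TPM without DMSO and at 3.14 and 3.10 TPM with it. The median log2 fold change was 0.63 over the 5 tested and 0.40 over the 4 with a mean of 1 TPM or more in each group, whereas the sum fell, and Foxj1 was at or under 0.0659 TPM in every library. The 6 blood markers summed to 11.0 and 4.36 TPM without DMSO and to 10.8 and 16.3 TPM with it, with Hba-a2 the most abundant and 0 of 2 tested genes called by limma at an adjusted p-value under 0.05. The 11 markers of blastocyst lineages, led by Gata4, summed to 95.9 and 81.3 TPM without DMSO and to 56.1 and 60.5 TPM with it, and 1 of 7 tested, Fgf4, was called lower. Both DMSO libraries lay above both control libraries for 2 of these 7, against 31.1% of all genes tested. These were Nanog (7.73 and 7.04 TPM without DMSO, 11.5 and 14.0 TPM with it) and Gata3 (1.58 and 1.16 TPM, then 4.84 and 2.50 TPM), neither of which passed the test. Both lay below for 4 of the 7, Fgf4, Gata4, Krt8 and Gata6, against 38.7% of all genes tested. The median log2 fold change was -0.62 over the 7 tested and 0.01 over 6 without Gata6, which passed the filter through the control libraries alone. The part of these cells or stages in the Obox values was not tested.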

How the data were processed

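The authors sequenced cDNA made with a low-input SMARTer kit, estimated transcript levels with kallisto against Ensembl transcripts of GRCm38, summed them per gene with tximport and deposited TPM values for 30049 genes. TPM values keep no depth, so that the depth of each library is unknown and neither counting intervals nor detection limits are given. The submitters' processing notes also name STAR, SAMtools, bedtools and mm10, and no version of these tools is given in the sources used here. The table's values summed to 768174 and 780527 TPM in the control libraries and to 772487 and 799166 TPM in the DMSO libraries, which shows that the genes listed are part of what was quantified.

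The study's count model needs estimated counts and was replaced by limma 3.58.1 in R 4.3.3 on log2(TPM + 1), for genes whose mean was 1 TPM or more, with a trend of variance on level, without a replicate block, and with Benjamini-Hochberg adjustment over all genes tested, at 0.05. Libraries were grouped by their labels, 2 control against 2 DMSO. Names, spans and transcripts came from GENCODE M21 on GRCm38, which named 29589 identifiers and is not the Ensembl release named in the study's methods. Shared sequence was counted as 31-base words on either strand. Start windows came from RefSeq on GRCm38.p6, and members missing from that table are named only. Python 3.11.15, pandas 2.3.3, numpy 2.4.6 and matplotlib 3.10.9 were used for other steps.

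The members and gene lists were chosen with earlier results of these data known, and no list was tested as a set. The genes named are the 8 members, Obox pseudogene rows whose mean was 1 TPM or more, the 3 most abundant and the up to 3 most changed called genes in each direction of each list of related genes, neighbours of the array, and the 3 genes with the profile nearest to that of the family. Other genes named in the text (such as Klf4, Foxo3, Tcstv1, Bmp15 and the markers) were chosen after their values were seen. The alternatives were a pseudocount of 0.1, no filter or a mean of at least 5 TPM, no trend, 2 other scalings, the replicate block, joining members that share 50% or more of their words, adding pseudogene rows to sums, and leaving out each library.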

Additional observations from a re-analysis of the deposited data

How the results depend on the processing

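The 4 called members kept their direction in all alternatives and their calls with a pseudocount of 0.1, a filter at 5 TPM, no trend, either other scaling, the replicate block, joined members (Obox1 as 1 row with Obox2) and without DMSO replicate 2. Without any one library the lone library of a group is assumed to vary like the other group, and the counts called ranged from 0 to 1883 for all genes, 0 to 5 for the Obox members, 0 to 6 for regulators of ZGA, 0 to 20 for 2-cell genes, and 0 to 1 for oocyte factors and for other homeobox genes. Obox2 ranged from 1.32 to 2.72, Obox7 from 0.22 to 3.02 and Obox3 from -0.21 to 0.14 (0.14 without control replicate 1 and 0.13 without DMSO replicate 2), and the ranges of the other members stand above, Obox1 from 1.35 to 2.12, Obox5 from 1.87 to 2.79, Obox6 from -1.98 to -1.73 and Obox8 from -1.98 to -1.39. The fold changes of Obox1 (1.73), Obox5 (2.33), Obox6 (-1.86) and Obox8 (-1.68) were as before with no filter. Limma then called 0 of all genes and 0 of the Obox members, 5 of which had an unadjusted p-value under 0.05. It also called 0 regulators of ZGA, 2-cell genes, oocyte factors and other homeobox genes, with 10 to 22 of each at an unadjusted p-value under 0.05. The larger number of genes tested enters that adjustment, and its part in the loss was not tested. Without a trend 4 oocyte factors were called.

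With a replicate block in the fit, 5132 genes, 6 Obox members, 16 regulators of ZGA and 12 other homeobox genes were called. Obox2 (2.02, limma adjusted p = 0.00438) and Obox7 (1.62, limma adjusted p = 0.0203) then passed. The groups share replicate numbers, but the labels do not say that a number marks a shared batch. Deviations of same-numbered libraries correlated at r = 0.35 across 12038 genes, which are not independent. Obox2 also passed without DMSO replicate 2 (2.72). The row that joins it with Obox1 (1.76) is nearly all Obox1 and so says little of Obox2. Obox3 turned to 0.067 with median-ratio scaling and to 0.25 with quantile normalization, the cause being not tested. The sum of all 8 members, 0.005 on the log2 scale, turned to -0.025 with pseudogene rows added and to -0.27 without DMSO replicate 1, with a range of -0.27 to 0.28 without any one library. The maternal sum ranged from 1.73 to 2.62 and the zygotic sum from -1.66 to -1.39, and the latter moved from -1.53 to -1.08 with pseudogene rows added, since these rows changed little. With a pseudocount of 0.1 Obox2 (2.88) and Obox7 (3.19) were larger and stayed short of the threshold. The part of depth and of the split of shared reads in the values of these 2 genes was not tested.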

Other observations

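Genes outside the family were compared with it by the shape of their values over the 4 libraries, as the Euclidean distance between centred log2(TPM + 1) profiles, among the 5655 genes whose mean was 10 TPM or more. This is a description of 4 libraries, which share the treatment and the replicate order, and says nothing of shared function or control. The 3 genes nearest to the summed level of the 8 members were Ccng2, Clcc1 and Rmi1, with distances of 0.0582, 0.0602 and 0.0684. Ccng2, a cyclin of the G type, was at 13.1 and 13.1 TPM without DMSO and at 16.9 and 11.1 TPM with it.

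Since the family's sum mixes members that rose and fell, both groups were also compared on their own, a choice made after the values were seen. Nearest to the maternal sum were Taf9b, a subunit of the general transcription factor TFIID, Sytl4, a synaptotagmin-like protein, and Immp1l, a protease subunit of the inner mitochondrial membrane. Taf9b was at 9.87 and 4.44 TPM without DMSO and at 44.8 and 23.7 TPM with it. Nearest to the sum of Obox6 and Obox8 were Hccs, which attaches haem to cytochrome c, Yrdc, a tRNA modifying enzyme, and Tcp11l1. Hccs was at 76.1 and 85.3 TPM without DMSO and at 19.7 and 27.9 TPM with it.

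Left of the array, the nearest tested genes were Sult2a4, a sulfotransferase gene, and Phf20-ps, a pseudogene. Sult2a4 was at 1.89 and 0.505 TPM without DMSO and at 8.31 and 5.75 TPM with it (limma adjusted p = 0.0315). Phf20-ps was at 2.61 and 1.91 TPM without DMSO and at 1.19 and 1.68 TPM with it.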
